A study of Mus musculus with 6 samples.

Results

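The 40 genes described here encode proteins that fold, check, transport and degrade secretory proteins in the endoplasmic reticulum (ER), the membrane compartment in which secreted and membrane proteins are made. They were selected from a list of gene names with the results of the comparison below in view, so their changes in it are a description and support nothing further. All 40 were found among the 54532 gene identifiers of the deposited files, in 6 subgroups: 11 chaperones and co-chaperones, 5 disulfide isomerases, 9 genes of ER-associated degradation, 3 stress sensors, 10 genes of translocation and signal peptide cleavage, and 2 genes of the COPII vesicle coat.

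RNA was sequenced from bone marrow cells labelled LSK, a gate of cells without lineage markers and with Sca-1 and c-Kit on their surface, rich in blood stem cells and early progenitors. All 6 libraries carry an allele of the X-linked gene Phf6 written Phf6fl-R274X, with Y in place of a second X chromosome. In 3 libraries (floxed) the label names this allele alone, and in 3 (Vav1-Cre) it adds Vav1-Cre, a recombinase driven by a promoter active in blood cells in general. Cre is present in every library of one group and in none of the other, so an effect of Cre itself cannot be told apart from that of the recombined allele. The sources used here do not give how recombination changes the allele, the age of the mice or any pooling. The labels do not tie each library to its own animal, so a p-value here reflects only variation among 6 libraries, part of which may be technical. Replicate numbers below only name libraries.

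Proteins enter the ER through the Sec61 channel, lose their signal peptide, and are folded by chaperones such as BiP and by enzymes that form disulfide bonds. Proteins that fail to fold are handed to a membrane ubiquitin ligase complex and degraded in the cytosol. When unfolded protein builds up, the sensors IRE1 alpha, PERK and ATF6 start the unfolded protein response, which raises transcription of many chaperone and degradation genes. In bone marrow, plasma cells depend on this machinery for antibody secretion, and blood stem cells are known for low protein synthesis and sensitivity to ER stress.

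A known promoter element of this response is the ER stress response element (ERSE), described as a site for NF-Y and ATF6. It reads CCAAT, 9 bases of any kind, then CCACG, and was searched for on both strands of RefSeq promoter windows that run from 250 bases before to 50 bases after a gene's start (GRCm38.p6). Windows were at hand for 33 of the 40 genes. The element was present in 8 of these 33 genes (24.2%) and in 37 of all 27025 genes with a window (0.137%). ERSE is known from this response, and the genes were chosen by name from its pathways. Their higher share is therefore a description and supports nothing further. The 9 elements of these 8 genes are printed below. Each is written in the direction in which it reads CCAAT first, with CCAAT and CCACG in capitals and the bases on either side in lower case.
Hspa5: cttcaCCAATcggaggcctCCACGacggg
Hsp90b1, nearer to the start: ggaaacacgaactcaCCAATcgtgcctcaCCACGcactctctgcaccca
Hsp90b1, farther from the start: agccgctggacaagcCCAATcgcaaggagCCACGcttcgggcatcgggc
Dnajc3: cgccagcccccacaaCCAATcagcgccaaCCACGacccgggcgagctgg
Creld2: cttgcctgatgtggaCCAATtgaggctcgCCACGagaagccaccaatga
Calr: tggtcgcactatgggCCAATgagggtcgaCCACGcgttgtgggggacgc
Canx: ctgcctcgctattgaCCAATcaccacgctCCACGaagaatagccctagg
Pdia6: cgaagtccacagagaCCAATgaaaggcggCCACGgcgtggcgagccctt
Syvn1: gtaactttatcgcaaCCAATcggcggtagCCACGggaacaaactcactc

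In GRCm38.p6 the Hspa5 element lies at chr2:34772025-34772043 on the plus strand, 47 bases before the RefSeq start and within an exon of another annotated Hspa5 transcript. The pair at Hsp90b1 lies at chr10:86705533-86705551 (written on the plus strand, against the gene) and at chr10:86705638-86705656 (minus strand, as the gene). The Creld2 element lies at chr15:88819520-88819538, 108 bases before the start and on the strand opposite to the gene. The other 5 lie at chr14:118937827-118937845 (Dnajc3, plus strand), chr8:84847075-84847093 (Calr, plus strand, against the gene), chr11:50325800-50325818 (Canx, minus strand), chr12:17266491-17266509 (Pdia6, plus strand) and chr19:6046532-6046550 (Syvn1, plus strand). Their distances from the start range from 26 bases at Syvn1 to 194 bases at the farther Hsp90b1 element. A match is a run of letters in this window, not a measured binding site.

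A related element, ERSE-II, reads ATTGG, 1 base of any kind, then CCACG. Its first part is the CCAAT box read on the other strand, so it shares both parts with ERSE. It was in the windows of Dnajb11 and Herpud1 and in 0.0365% of all windows. At Herpud1 it lies at chr8:94386377-94386387, plus strand, 42 bases before the start, printed with its 2 parts in capitals because Herpud1 is among the largest changes.
Herpud1: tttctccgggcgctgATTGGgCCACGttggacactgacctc
The core of one more element, UPRE, TGACGTG, was in the windows of Hspa5 and Sec24d and in 2.01% of all windows, so it is far more common than ERSE.

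Total counts per library ranged from 15406314 to 18106065. Floxed replicate 3 listed 870 genes at a count of 1, against 1405 to 1784 in the others, with no stated filter. Without it 22 of the 40 genes were called higher, but the share of all tested genes called in that fit is not given here. Phf6, the targeted gene, had 31.8, 29.6 and 33.5 CPM (the gene's share of a library's counts, scaled to a fixed total with TMM factors) in the floxed libraries and 8.47, 10.2 and 8.29 in the Vav1-Cre libraries, 3.51-fold lower. Of the gate's defining genes, Kit was lower in the Vav1-Cre libraries (158 ± 12.8 against 96.7 ± 14.8 CPM, mean and SD, n = 3 each) and Ly6a, which encodes Sca-1, was higher (142 ± 5.07 against 247 ± 15.6). Immunoglobulin genes took 0.649%, 0.292% and 1.18% of counts in floxed libraries 1, 2 and 3, and 6.85%, 7.95% and 4.45% in Vav1-Cre libraries 1, 2 and 3. These shares did not overlap, and an exact two-sided permutation test gave p = 0.1, the smallest that 3 against 3 libraries allow. The 95% Wilson half-widths of the shares were at most 0.0132 percentage points and cover counting error only. The plasma cell genes Jchain (240.7, 101.4 and 579.6 against 3591, 3717 and 1478 CPM) and Mzb1 (43.2, 24.7 and 74.6 against 345.9, 330.6 and 148.2 CPM) were split in the same way. Neither Jchain nor Mzb1 passed the edgeR test described below (adjusted p 0.0813 and 0.0629). Of 20 listed plasma cell markers, of which 11 are not immunoglobulin genes, 12 passed the edgeR test as higher and 0 as lower. Their summed level without immunoglobulin genes was 261 to 859 CPM in floxed libraries and 1990 to 4661 CPM in Vav1-Cre libraries. None of these markers was at 0 in every floxed library. Plasma cells use the ER genes heavily, so their share is given beside the results below. In bulk RNA, more cells of a type and more RNA per cell cannot be told apart.

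In the Vav1-Cre libraries, 23 of the 40 genes were higher and 1 was lower than in the floxed libraries at an adjusted p under 0.05 (edgeR quasi-likelihood test, adjusted over all 14608 genes tested). Over all tested genes 10.1% were called higher, 7.89% lower and 17.9% in either direction. At an unadjusted p under 0.05 there were 28 of the 40, of which Ern1 alone was below 0, and 32.1% of all tested genes. The median log2 fold change was 0.32 over the 40 genes and -0.02 over all tested genes. All 40 genes passed the filter on low counts. For 30 of the 40 genes, every Vav1-Cre library lay above every floxed library, against 18.9% of all tested genes. For 1 gene, Ern1, every Vav1-Cre library lay below. The change was at least 2-fold for 5 genes: Creld2, Sel1l, Edem1, Herpud1 and Sdf2l1. Summed over the 40 genes, the deposited FPKM (fragments per kilobase of transcript) was 1920, 1981 and 2054 in the floxed libraries and 2552, 2670 and 2580 in the Vav1-Cre libraries. These values are scaled between libraries by median-ratio factors, not by total counts.

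**Figure D1:**
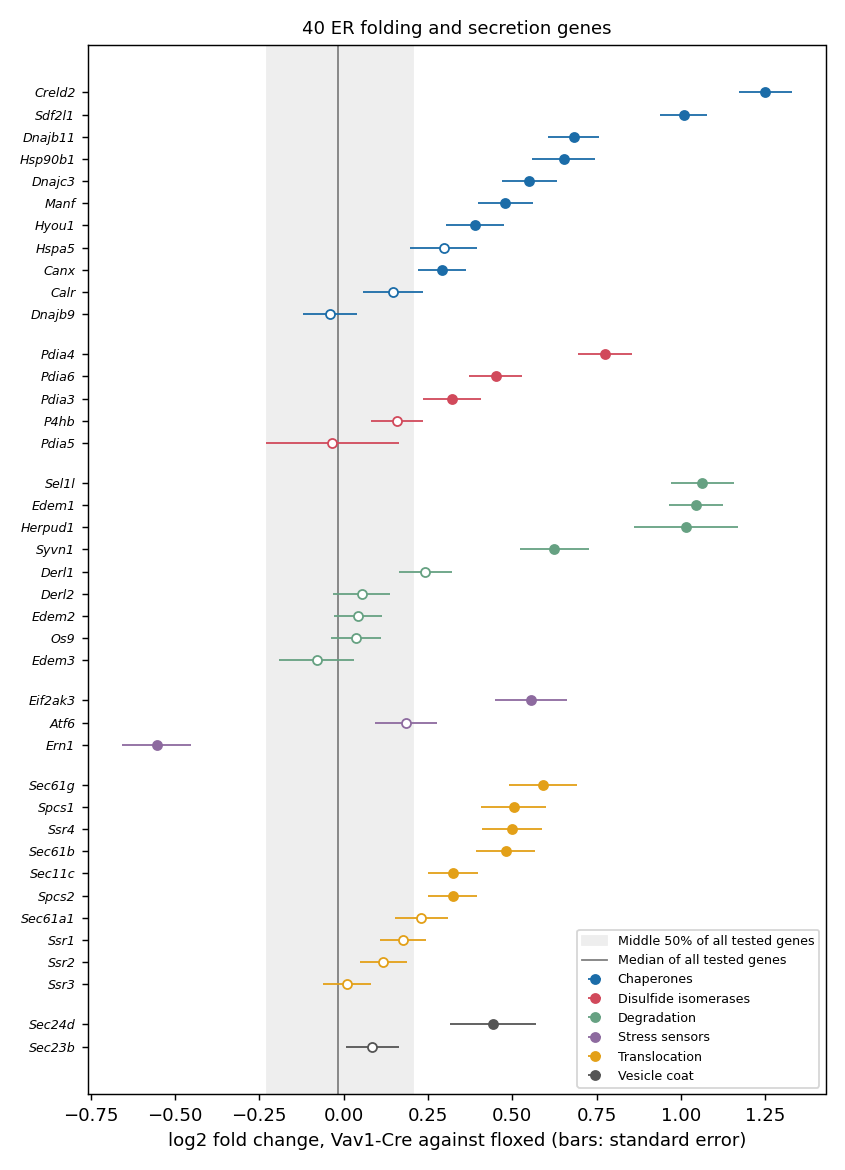
Log2 fold change of each of the 40 genes, Vav1-Cre against floxed, with its standard error, ordered within subgroups; filled points passed the edgeR test (adjusted p under 0.05) and open points did not. The grey band holds the middle 50% of all tested genes. Creld2 lies farthest right at 1.25 and Ern1 is the 1 filled point left of 0, at -0.55.

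Among the 11 chaperones and co-chaperones, 8 were higher, 0 were lower and 3 did not pass, with a median log2 fold change of 0.48. Creld2, a small secreted ER-stress protein with isomerase activity (chr15:88819646-88826683), had 47.8, 45.8 and 52.1 CPM in the floxed libraries and 112.5, 123.1 and 110.5 in the Vav1-Cre libraries. The lowest Vav1-Cre value, in replicate 3, was far above the highest floxed value, and the groups lay apart. Its log2 fold change was 1.25 (SE 0.08, adjusted p 4.0e-06), the largest of the 40. Sdf2l1, a partner of BiP and its J-protein ERdj3, had 65.0, 62.2 and 68.1 CPM in the floxed libraries and 128.2, 133.8 and 130.5 in the Vav1-Cre libraries. The values were tight within each group, and the log2 fold change was 1.01 (SE 0.07, adjusted p 6.7e-06). Dnajb11, which encodes ERdj3 itself, had 74.0, 80.7 and 78.6 CPM against 119.5, 133.8 and 121.1, with no overlap (log2 fold change 0.68, SE 0.08, adjusted p 0.000159). Hsp90b1, the ER member of the HSP90 family (GRP94), had 226.3, 237.8 and 285 CPM against 365.7, 404.3 and 407.8. The highest floxed library, replicate 3, was still below all Vav1-Cre libraries (log2 fold change 0.65, SE 0.09, adjusted p 0.000849).

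The most abundant genes of the subgroup, Calr and Hspa5, did not pass. Calr, the lectin chaperone calreticulin, had the highest mean level per length of all 40 genes (267 FPKM). It had 690.3, 782.1 and 727.2 CPM in the floxed libraries and 719.2, 845.8 and 871 in the Vav1-Cre libraries, and the groups overlapped (log2 fold change 0.15, adjusted p 0.28). Hspa5, which encodes BiP, the main ER chaperone and a standard readout of the unfolded protein response, ranged from 685 to 869 CPM in the floxed and from 909 to 1066 in the Vav1-Cre libraries. The groups did not overlap, but its log2 fold change of 0.30 (SE 0.10) had an adjusted p of 0.0547. It was 0.18 without floxed replicate 1, the lowest floxed library. DESeq2 (adjusted p 0.0156), the fit with no count filter (0.00513), that without immunoglobulin genes (0.0456) and that with the length offset (0.0359) called it higher. Canx, the membrane lectin chaperone calnexin, was higher by 0.29 (adjusted p 0.014), a call lost without floxed replicate 1 or 2 or Vav1-Cre replicate 2 (adjusted p up to 0.0726). Hyou1, the nucleotide exchange factor of BiP, was higher by 0.39, Manf, a secreted ER-stress protein, by 0.48 and Dnajc3, a BiP co-chaperone, by 0.55 on the log2 scale. The call of Hyou1 was lost without floxed replicate 1 (adjusted p 0.0593). Manf shares exon sequence with Rbm15b on the same strand and Dcaf1 on the other, with 7160 and 2897 counts in all against 17925 for Manf. Dnajb9, a J-protein that restrains IRE1, stood at -0.04 on that scale (adjusted p 0.76), the only value below 0 here.

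Of the 5 disulfide isomerases, 3 were higher, 0 were lower and 2 did not pass, with a median log2 fold change of 0.32. Pdia4 (ERp72) had 87.2, 90.6 and 94.2 CPM in the floxed libraries and 146.4, 171.0 and 147.9 in the Vav1-Cre libraries. The groups did not overlap, and Vav1-Cre replicate 2 was highest (log2 fold change 0.77, SE 0.08, adjusted p 0.000112). Pdia6, a further oxidoreductase of the family, had 224.7, 254.0 and 243.2 CPM against 308.2, 337.9 and 340.5 (log2 fold change 0.45, SE 0.08, adjusted p 0.00246). Pdia3, the partner of calnexin and calreticulin, had 432.3, 443.4 and 510.2 CPM against 546.2, 571.9 and 614.3 (log2 fold change 0.32, SE 0.09, adjusted p 0.0219). In both genes all Vav1-Cre libraries were above all floxed ones, though for Pdia3 the nearest values were 510.2 and 546.2. The Pdia3 call was lost without floxed replicate 1 or 2 or Vav1-Cre replicate 2 (adjusted p up to 0.128). P4hb, the founding protein disulfide isomerase and the most abundant of the 5 (166 FPKM), had 439.0, 472.7 and 438.8 CPM against 476.0, 496.3 and 534.7. Its groups were separated by only the step from 472.7 to 476.0, and it did not pass (log2 fold change 0.16, adjusted p 0.177). Pdia5 was the least abundant at 4.24 FPKM, with a log2 fold change of -0.03 (SE 0.20) and overlapping groups.

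The 9 degradation genes were divided: 4 were higher by 0.62 to 1.06 on the log2 scale, and the other 5 lay between -0.08 and 0.24 and did not pass. Sel1l, the adaptor that holds the ligase complex together, had 40.8, 44.5 and 44.8 CPM in the floxed libraries and 88.6, 102.1 and 81.3 in the Vav1-Cre libraries. All Vav1-Cre values were well above the floxed ones (log2 fold change 1.06, SE 0.09, adjusted p 3.3e-05). Syvn1, which encodes the ubiquitin ligase HRD1 that SEL1L binds, had 32.8, 33.0 and 32.4 CPM against 46.6, 58.6 and 46.0 (log2 fold change 0.62, SE 0.10, adjusted p 0.00181). The floxed values were nearly equal, and Vav1-Cre replicate 2 stood highest. Exons of Syvn1 overlap those of Mrpl49 on the other strand, which had 5939 counts in all against 4131 for Syvn1; the sources used here do not give strand use in the counting, so reads in the overlap cannot be told apart. Herpud1, a membrane protein that gathers the ligase complex, had 92.8, 107.0 and 125.4 CPM against 220.5, 254.9 and 181.6. It was the most variable called gene within both groups, with replicate 3 highest of the floxed and lowest of the Vav1-Cre libraries (log2 fold change 1.01, SE 0.15, adjusted p 0.0059). Edem1, which takes mannose-trimmed proteins out of the folding cycle, had 70.2, 63.8 and 65.6 CPM against 143.4, 143.4 and 124.9 (log2 fold change 1.04, SE 0.08, adjusted p 1.1e-05).

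The relatives of Edem1 did not follow it. Edem2, which makes the first mannose cut, had a log2 fold change of 0.04 and Edem3 one of -0.08, with overlapping groups in both (adjusted p 0.72 and 0.66). Os9, the lectin that reads the trimmed glycan, had 0.04, and Derl2, a channel component, 0.05; Derl2 overlaps Mis12 on the other strand, which had 2886 counts in all against 4331. Derl1 ranged from 118 to 127 CPM in the floxed and from 129 to 152 CPM in the Vav1-Cre libraries without overlap, and its log2 fold change of 0.24 had an adjusted p of 0.0519. DESeq2 (adjusted p 0.0416), RLE scaling (0.0465), and the fits without immunoglobulin genes (0.0459) and without Vav1-Cre replicate 3 (0.00794) called it higher. Whether Edem1 differs in its response from Edem2 and Edem3 was not tested.

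The 3 stress sensors went different ways. Ern1, which encodes IRE1 alpha, had 35.9, 37.4 and 33.4 CPM in the floxed libraries and 21.5, 25.8 and 25.4 in the Vav1-Cre libraries. Every Vav1-Cre value was below every floxed value, and Ern1 was the only one of the 40 genes called lower (log2 fold change -0.55, SE 0.10, adjusted p 0.00371). Eif2ak3, which encodes PERK, had 18.2, 18.8 and 18.8 CPM against 26.4, 30.2 and 25.3, all higher (log2 fold change 0.56, SE 0.11, adjusted p 0.00458). Atf6 had 34.6, 29.96 and 33.4 CPM against 38.3, 36.9 and 36.2, without overlap but with a small step (log2 fold change 0.18, adjusted p 0.186). With the length offset it was called higher (adjusted p 0.045). All 3 were expressed at a low level per length, between 3.64 and 3.79 FPKM on average. These are transcript levels and say nothing of sensor activity.

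In translocation and signal peptide cleavage, 6 of 10 genes were higher, 0 were lower and 4 did not pass, with a median log2 fold change of 0.32. Sec61g, the gamma subunit of the channel, had 67.1, 53.4 and 60.3 CPM in the floxed libraries and 99.6, 92.4 and 80.5 in the Vav1-Cre libraries (log2 fold change 0.59, SE 0.10, adjusted p 0.00249). Sec61b, the beta subunit and the most abundant of the 10 (161 FPKM), had 185.9, 159.7 and 168.6 CPM against 265.5, 232.8 and 219.3 (log2 fold change 0.48, SE 0.09, adjusted p 0.00339). Both small subunits were higher in every Vav1-Cre library, most of all in replicate 1. Sec61a1, the pore-forming alpha subunit, had a log2 fold change of 0.23 without overlap of the groups, and its adjusted p was 0.0615. The fits without Vav1-Cre replicate 1 (adjusted p 0.0466) and with the length offset (0.0119) called it higher. Ssr4, the delta subunit of the translocon-associated protein complex (TRAP), had 162.4, 168.8 and 170.8 CPM against 270.3, 228.2 and 211.6, and again Vav1-Cre replicate 1 was highest (log2 fold change 0.50, SE 0.09, adjusted p 0.00295). The other TRAP subunits did not pass, with log2 fold changes of 0.18 for Ssr1, 0.12 for Ssr2 and 0.01 for Ssr3. With the length offset Ssr1 was called higher (adjusted p 0.0092). Spcs1, a subunit of the signal peptidase, had 100.8, 88.3 and 108.2 CPM against 156.6, 138.9 and 126.0 (log2 fold change 0.50, SE 0.10, adjusted p 0.00456). The other signal peptidase genes were higher by the same amount, 0.32 on the log2 scale for Spcs2 (adjusted p 0.00905) and 0.32 for the catalytic subunit Sec11c (adjusted p 0.0108). Spcs2 lost the call without floxed replicate 1 or 2 (adjusted p up to 0.0564), and Sec11c without floxed replicate 2 or Vav1-Cre replicate 1 (up to 0.0601). Spcs1 overlaps Glt8d1 on the other strand, which had 2961 counts against 11968.

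Both coat genes encode inner-coat subunits of the vesicles that leave the ER. Sec24d, a cargo-binding subunit with the lowest level per length of all 40 genes (2.48 FPKM), had 13.7, 13.7 and 12.8 CPM in the floxed libraries and 17.1, 20.8 and 16.7 in the Vav1-Cre libraries. It was higher by 0.44 (SE 0.13, adjusted p 0.0312), but this call was lost when any 1 of 5 libraries was left out, with adjusted p up to 0.149. Sec23b had 50.4, 51.1 and 48.7 CPM against 50.3, 55.2 and 53.8, with overlap and a log2 fold change of 0.09 (adjusted p 0.49).

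**Figure D2:**
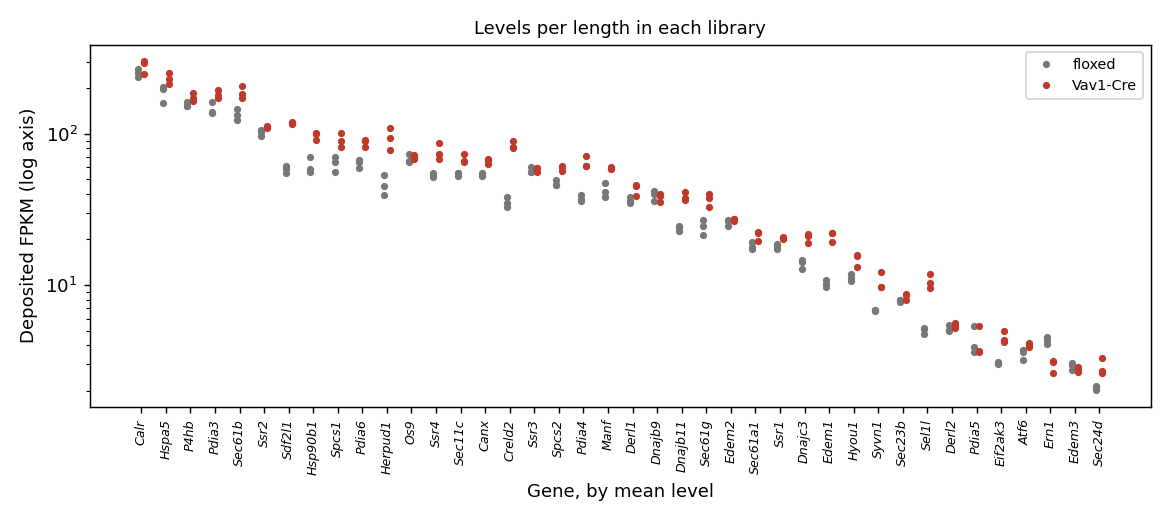
Deposited FPKM of each gene in each library on a log axis, ordered by mean level, with floxed libraries in grey and Vav1-Cre libraries in red. The levels per length run from 267 FPKM for Calr to 2.48 for Sec24d, and the genes with the largest folds, such as Sdf2l1, Creld2 and Sel1l, rank 7, 16 and 33 of 40 by level.

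**Figure D3:**
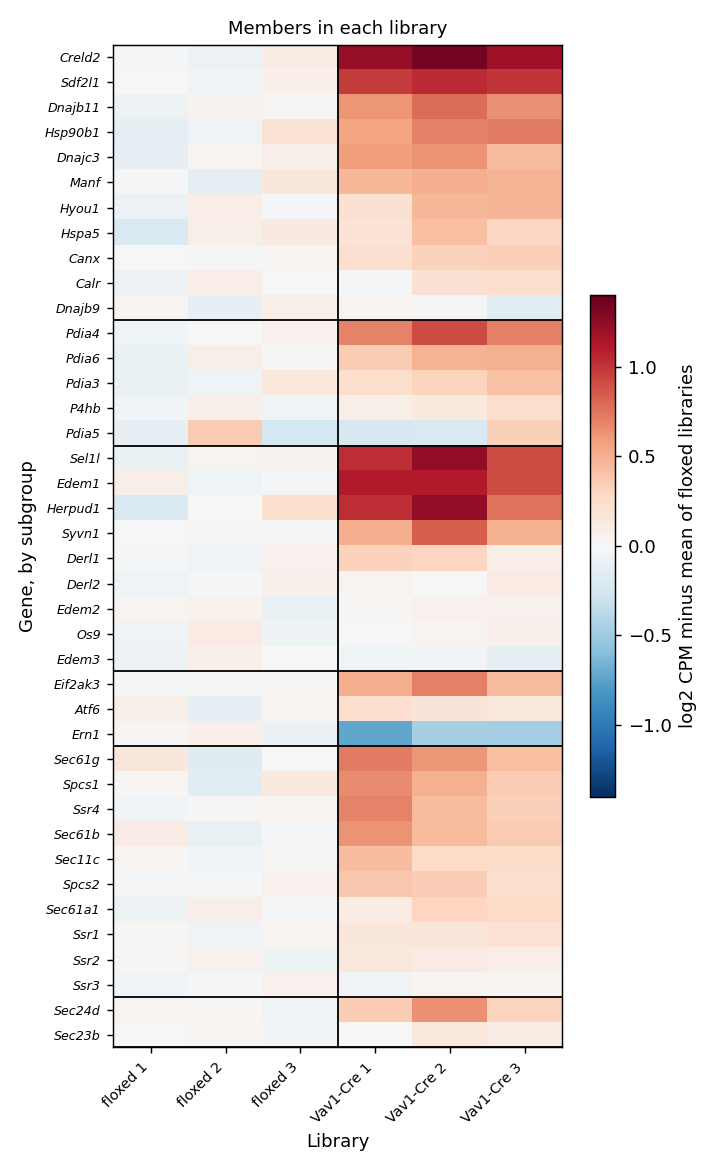
Each gene's log2 CPM in each library minus its mean over the 3 floxed libraries, by subgroup; red is higher and blue lower. For 30 genes all 3 Vav1-Cre columns exceed all floxed columns, and in the row of Ern1 they are all lower.

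The subgroups differed in which Vav1-Cre library was highest. Replicate 1 was highest for 7 of the 10 translocation genes, replicate 2 for 6 of the 11 chaperones and 6 of the 9 degradation genes, and replicate 3 for 4 of the 5 isomerases. The same counts over all tested genes are not given here, so a tendency of whole libraries cannot be told apart. The steps were small: the ratio of the highest to the lowest Vav1-Cre library had a median of 1.13 over the 40 genes. Over all tested genes it was 1.23. As medians over a subgroup, the chaperones lay 0.46, 0.51 and 0.48 above the floxed mean (log2) in Vav1-Cre replicates 1, 2 and 3, nearly level. The degradation genes lay 0.33, 0.31 and 0.12 above it and the translocation genes 0.41, 0.32 and 0.27 above it, both lowest in replicate 3. The isomerases ran the other way, at 0.25, 0.31 and 0.42. Replicate 3 had the smallest immunoglobulin share of the Vav1-Cre libraries.

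**Figure D4:**
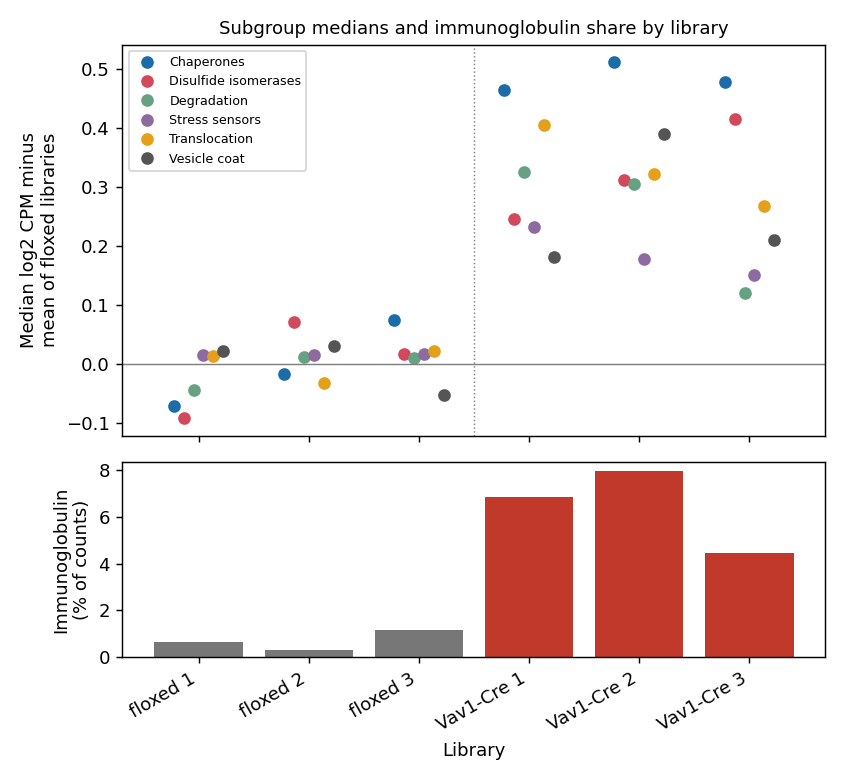
Upper panel, median over each subgroup of log2 CPM minus the floxed mean, per library; lower panel, immunoglobulin share of counts in percent. In Vav1-Cre replicate 3, where the share was 4.45%, the chaperone median was 0.48 and the degradation median 0.12.

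The spread within a group was compared with that of genes high in plasma cells. The ratio of the highest to the lowest floxed library had a median of 1.1 and a maximum of 1.35 over the 23 genes called higher, against a median of 1.2 over all tested genes. It was 5.72 for Jchain, 4.02 for the immunoglobulin share, 2.94 for Derl3, 2.75 for Irf4 and 1.23 for Xbp1. Between the Vav1-Cre libraries the 23 genes had a median of 1.15 and a maximum of 1.4 (Herpud1), against 1.23 over all tested genes. There it was 2.52 for Jchain, 1.79 for the immunoglobulin share, 1.53 for Derl3, and 1.37 for both Irf4 and Xbp1, the last pair just below Herpud1. For Creld2 the 2 ratios were 1.14 and 1.11, and for Sdf2l1 they were 1.1 and 1.04. A gene also expressed in other cells would have a smaller ratio for the same change in plasma cells. The ratios therefore cannot tell what part of a gene's RNA came from plasma cells. The order of the libraries was partly shared with the immunoglobulin genes. Of the 23 genes, 14 were highest of the floxed libraries in replicate 3, which had the highest floxed immunoglobulin share. Also, 14 were lowest of the Vav1-Cre libraries in replicate 3, which had the lowest share there. The lowest floxed share was in replicate 2. Sdf2l1, Creld2 and Edem1, among others, were lowest in that library, but Pdia4, Sel1l and Herpud1, among others, were lowest in floxed replicate 1. Such positions over all tested genes are not given here, and what sets the order was not tested. With the log2 immunoglobulin share as a covariate in the fit, 0 of the 40 genes passed, and 9 of all tested genes did (0.0616%). At an unadjusted p under 0.05 the covariate fit left 10 of the 40 genes, and 7.58% of all tested genes. Without the covariate these were 28 of the 40 and 32.1%. The median log2 fold change over the 40 genes was then 0.31, with 33 above 0, and the standard errors were 2.74 times as large. The share and the group nearly coincide, so the part of plasma cells in these changes cannot be told apart from that of genotype in this fit. With all immunoglobulin genes removed before scaling, 25 of the 40 genes were higher and 1 was lower. That fit drops only the counts of the immunoglobulin genes and keeps all other RNA of plasma cells. It therefore cannot tell the part of plasma cells in these changes. The share of all tested genes called in it is not given here.

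Of the 8 genes with an ERSE, 6 were higher and the other pair, Hspa5 and Calr, did not pass, with a median log2 fold change of 0.50. Of the 25 genes with a window and no ERSE, 14 were higher, with a median of 0.32. Over all tested genes 10.1% were called higher. The genes were chosen with these changes in view, and a difference by element was not tested. The fold changes of the 8 ran from 0.15 for Calr to 1.25 for Creld2, so genes with the element spanned most of the range. Several of the largest changes, among them Sdf2l1, Edem1 and Sel1l, had no ERSE in the window. Outside the 40 genes, 8 further tested genes had an ERSE. Of these, Derl3, a degradation gene related to Derl1, was higher by 3.03 (adjusted p 0.0176), Zfp57, a zinc finger gene, was lower by 1.05 on the log2 scale, and the other 6 did not pass.

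In a wider list of 186 tested genes of the same pathways outside the 40, 40 genes were higher (21.5%) and 7 were lower, with a median log2 fold change of 0.12. Of all tested genes, 10.1% were higher and 7.89% lower. By list, the share called higher ran from 14.3% for other degradation genes to 35.7% for response effectors. Of the unfolded protein response effectors, 5 of 14 were higher and 0 were lower. Xbp1, the transcription factor whose transcript IRE1 splices, had 134.5, 144.0 and 165.0 CPM in the floxed libraries and 372.3, 410.8 and 300.3 in the Vav1-Cre libraries, 2.44-fold higher (adjusted p 0.000213). Its change was opposite to that of Ern1, its splicing enzyme. Creb3l2, a related membrane-bound factor, was higher by 0.71 on the log2 scale, a call lost without floxed replicate 1 (adjusted p 0.0569). Atf4, the factor translated upon PERK signalling, was higher by 0.28, but lost the call in 5 of the 6 fits that left out 1 library (adjusted p up to 0.119), passing only without Vav1-Cre replicate 3. Among other folding genes 11 of 46 were higher and 4 lower; smallest in p were the prolyl isomerase genes Fkbp2 (0.78) and Fkbp11 (1.24) and the thioredoxin-domain gene Txndc11 (0.66). Among 30 glycosylation genes 7 were higher and 0 lower; smallest in p were Rpn1 (0.44) and Ost4 (0.46), subunits of the oligosaccharyltransferase, and Alg5 (0.40), which makes a sugar donor and lost its call in 3 fits with 1 library left out (without floxed replicate 1 or 2 or Vav1-Cre replicate 1). Of 28 other degradation genes 4 were higher and 2 lower, the list nearest to the share of all tested genes called higher. Selenos (0.66) and the ubiquitin-conjugating gene Ube2j1 (0.56) were higher, and Svip, an inhibitor of this degradation, was lower (-0.70). Svip lost its call without floxed replicate 1 or 2 or Vav1-Cre replicate 1 (adjusted p up to 0.0734). Of 22 other translocation genes 4 were higher and 0 lower, with Serp1 (0.64), Get4 (0.38) and Asna1 (0.37, lost without floxed replicate 2) first by p. Of 46 other coat and transport genes 9 were higher and 1 lower, with Cope (0.36), Sec13 (0.35) and Tmed10 (0.29, lost without floxed replicate 1 or 2 or Vav1-Cre replicate 2) first by p. Leaving out single libraries reduced the 40 higher genes of this wider list to as few as 15, without floxed replicate 2.

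Other cell type markers moved with the groups as well. Of 17 tested B cell markers 8 were higher and 0 lower. In either direction, DESeq2 called 15 B cell, 10 plasmacytoid, 15 macrophage and 12 T and NK cell markers, and limma-voom 8, 10, 9 and 12. The share of all tested genes called in those 2 fits is not given here. Of 15 markers of plasmacytoid dendritic cells, another secretory cell type, 9 were higher and 1 was lower. Of 17 macrophage markers 8 were higher, and of 16 markers of T and NK cells 10 were higher and 1 was lower, while their summed level was 252, 260 and 262 CPM in the floxed libraries and 260, 223 and 270.2 CPM in the Vav1-Cre libraries, which overlapped. Of 12 markers of the LSK gate 1 was higher and 9 were lower. Of 14 erythroid markers 4 were higher and 1 was lower, and of 11 tested mast cell and basophil markers 1 was lower and none higher. Of 16 neutrophil markers 0 passed the edgeR test in either direction, 0 had an unadjusted p under 0.05 and 0 passed with DESeq2 or limma-voom, and their median log2 fold change was -0.09. Summed levels did not overlap for B cell markers (410.5 to 968 CPM floxed against 1768 to 3582 Vav1-Cre) or plasmacytoid markers (519 to 643 against 819 to 1074). The same held for macrophage markers (2904 to 4185 against 4908 to 6325) and erythroid markers (1546 to 1840 against 2405 to 3723). Sums of the LSK gate were lower (2022 to 2090 against 1500 to 1695), and those of neutrophil and mast cell markers overlapped. The part of these cells in the changes of the 40 genes was not tested.

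Gene length also moved with the groups. Over all tested genes the median log2 fold change fell from 0.20 in the shortest of 10 equal classes by exon length to -0.13 in the longest. Creld2, Sdf2l1, Sec61b and Spcs1 are in the next shortest class, whose median was 0.11, while Sel1l and Edem1 are in long classes with medians of -0.10 and -0.08. With a length trend per library as an offset, an alternative chosen after seeing the data, 27 of the 40 genes were higher and 1 was lower. The share of all tested genes called with that offset is not given here. Among the Vav1-Cre libraries, short genes as a class were highest in replicate 1, the library in which most translocation genes were highest. Counted from the shortest, those translocation genes were in classes 2 (Sec61b, Spcs1), 3 (Sec61g, Ssr2), 4 (Ssr4), 6 (Spcs2) and 8 (Sec11c). The deposited count and FPKM of Sec11c imply a shorter length than its merged exons. Whether length plays a part in their order was not tested.

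**Figure D5:**
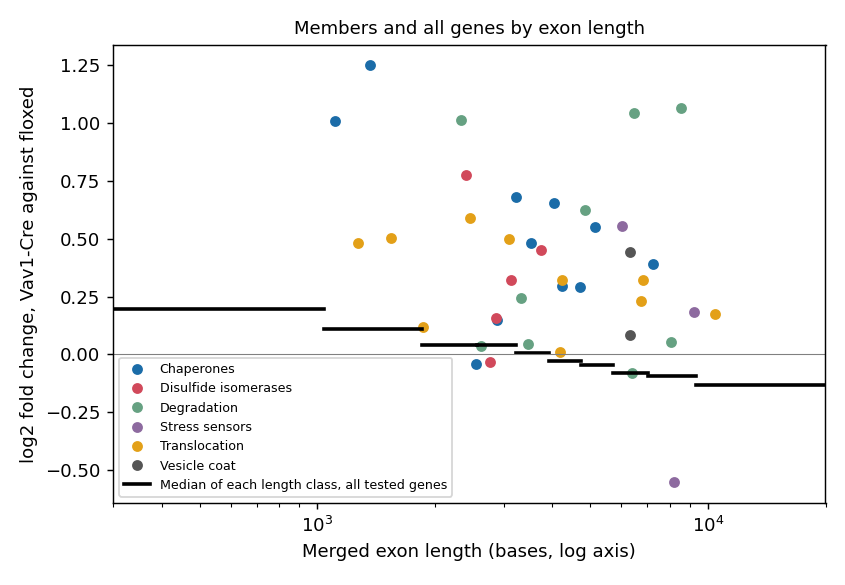
Log2 fold change of each of the 40 genes against its merged exon length in bases (log axis), coloured by subgroup; black bars are the medians of all tested genes in each of 10 length classes, and the outermost bars run past the axis. The bars fall from 0.20 to -0.13, and Creld2 at 1.25 and Sel1l at 1.06 lie far above the bars of their lengths.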

How the data were processed

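RNA-seq was read from 6 deposited tables, 3 a group, grouped by the genotype label. Per the file headers, the authors deposited 2 columns a library over 54532 Ensembl genes, a whole-number count and an FPKM value. The submitters' processing notes name Bowtie and mm8. The sources used here do not give the counting tool, annotation or strand setting. Gene lengths implied by both columns matched GENCODE M21 (GRCm38) within 0.01% for 94.4% of genes over 200 counts, so gene coordinates are those of GRCm38. The deposited FPKM values are already scaled between libraries by median-ratio factors, as computed from the files. Of the identifiers, 54409 had a symbol and 123 did not.

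The deposited count columns hold whole numbers and differ in their totals; they were taken as unscaled. They were tested with edgeR 4.0.16 in R 4.3.3 (TMM, filterByExpr with a minimum count of 10, quasi-likelihood test, robust option, Benjamini-Hochberg adjustment over all 14608 genes), checked on simulated counts. Totals of 15406314 to 18106065 bound the precision of low genes. Permutation tests and Wilson intervals used SciPy 1.17.1. The members and lists were chosen with earlier results of these data known. All 40 members may be named; values in all 6 libraries are given for up to 4 members with the smallest p and the one with the highest mean FPKM in each subgroup, and up to 3 genes by smallest p are named from each pathway list. Alternatives were DESeq2 1.42.0, limma 3.58.1 (voom, or log2 of FPKM + 1 or + 0.1 at a mean of at least 0.5, or unfiltered), scaling by RLE or upper quartile, all genes unfiltered, robust off, each library left out, immunoglobulin genes removed and their share as covariate. A length offset was added after seeing the data. Promoter sequences are from RefSeq.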

Additional observations from a re-analysis of the deposited data

How the results depend on the processing

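Of the 24 members called in either direction, 18 passed in all 6 fits that left out 1 library. Hyou1, Canx, Pdia3, Spcs2, Sec11c and Sec24d lost the call in at least 1 of them. The text gives the libraries and values beside each. The number of members higher was 18 to 24 with 1 library left out, and that of members lower stayed at 1. DESeq2 called 25 members higher, limma-voom 23, RLE scaling 24, upper-quartile scaling 23, no count filter 24 and the robust option off 23. On the deposited FPKM it was 21 with either pseudocount, and 13 higher and 0 lower with no filter, where many more genes enter the adjustment. With the immunoglobulin share as covariate 0 members were higher and 0 lower. Apart from the covariate fit, the share of all tested genes called under each alternative is not given here or above. Member counts under those alternatives therefore cannot be set against the share over all genes.

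The median log2 fold change of the members was 0.28 with upper-quartile scaling, 0.36 with the length offset and 0.31 to 0.36 with 1 library left out. Of 720 member values under alternatives, 635 kept direction and side of the threshold. Members that changed sign were close to 0 as reported or did so under the covariate; the cause was not tested. With 1 library left out, Dnajb9 ran from -0.11 to 0.010, Pdia5 from -0.24 to 0.15, Edem2 from -0.011 to 0.058, Os9 from -0.011 to 0.080 and Ssr3 from -0.024 to 0.040. With upper-quartile scaling Edem2 was at -0.00188, Os9 at -0.00804 and Ssr3 at -0.035, and with no count filter Ssr3 was at -0.010. Under the covariate Pdia5 was at 1.19, Derl1 at -0.050, Atf6 at -0.082, Ssr3 at -0.079, Spcs1 at -0.040 and the stress sensor median at -0.082. Outside the members, the wider pathway genes Ube2j1 and Svip also changed sign under it, to -0.050 and 0.19.

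Of the wider pathway genes, 40 were higher and 7 lower as reported. With 1 library left out these counts were 15 to 47 and 0 to 9, lowest without floxed replicate 2 and without Vav1-Cre replicate 1. They were 0 and 0 under the covariate and 11 and 0 on unfiltered FPKM, and 1 was lower on filtered FPKM with either pseudocount. No paired analysis was possible because the labels number the libraries of the 2 groups differently and name no shared litter, day or batch. With 3 libraries a group, small changes in low-count genes such as Sec24d are at the limit of what these data resolve.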
